A study of Mus musculus with 11 samples.

Results

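RNA-seq of mouse embryonic stem cells (mESCs) that lack ATXN7L3 was compared with RNA-seq of wild-type (WT) mESCs, over every gene that passed a filter on low counts. The comparison used 5 of the 11 samples of the study, 2 libraries from WT mESCs (Atxn7l3+/+) and 3 from Atxn7l3-/- mESCs, and the filter kept 17800 of the 31518 genes listed for these cells. All lines had the strain background DBA/2 x C57BL/6, and each was derived from its own blastocyst of an intercross of heterozygous mice, so that the Atxn7l3-/- lines carry a constitutive null allele and replicates are different embryos. Lines were grown on feeder cells for 2 passages and then without feeders, in 15% fetal calf serum (FCS) with leukemia inhibitory factor (LIF) and with PD0325901 (1 uM), which inhibits MEK, and CH99021 (3 uM), which inhibits GSK3. A further WT mESC dataset, which the study set aside after principal component analysis, was not analysed here.

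ATXN7L3 is an adaptor protein of the deubiquitinase (DUB) module of the SAGA coactivator, and with ENY2 it activates the USP22 enzyme that removes mono-ubiquitin from histone H2B. Naive mESCs keep themselves undifferentiated through a network of transcription factors around OCT4 (Pou5f1), SOX2 and NANOG. LIF feeds this network through the JAK and STAT3 pathway, the GSK3 inhibitor through β-catenin and the TCF/LEF factors of the Wnt pathway, and the MEK inhibitor by holding down ERK signalling, which otherwise pushes the cells towards differentiation.

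Libraries held between 35050190 and 45234276 counted reads, and a floor of 3 counts per library was worth 0.0644 to 0.0902 CPM, the unit of level used below (counts-per-million of the library's reads, normalized by the TMM method). These limits cover counting error only. Atxn7l3 (ENSMUSG00000059995, mm10 chromosome 11, 102289300 to 102296631) stood at 221.6 and 223 CPM in the WT libraries. In Atxn7l3-/- libraries 1 to 3 it stood at 3.91, 1.79 and 0.976 CPM. The fall was 99.9-fold on the mean level (log2 fold change −6.65, standard error 0.53, adjusted p = 0.0211), where the quasi-likelihood test of edgeR was used and p-values were adjusted by Benjamini and Hochberg's method over all genes tested. The defining genes of mESCs were present in every library. Pou5f1, for example, ranged from 896 to 1373 CPM over the 5 libraries, Esrrb from 501 to 678 CPM and Nanog from 368 to 986 CPM. Because RNA was taken from whole cultures, fewer cells of a type and less RNA per cell cannot be told apart.

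Libraries of the same genotype were not alike in their sex-linked genes. Reads on Y-linked genes numbered 7658 and 17602 in the WT libraries, 269 and 64 in Atxn7l3-/- libraries 1 and 2, and 18614 in Atxn7l3-/- library 3. The first principal component held 61.7% of the variance and separated the genotypes. The second held 24.1% and set Atxn7l3-/- library 3 (−35.7) against Atxn7l3-/- libraries 1 and 2 (22.3 and 25.5), with the WT libraries between them (−3.60 and −8.47). Results are therefore also given from both WT libraries against Atxn7l3-/- library 3 alone, the libraries with Y-linked reads, an alternative chosen after seeing the data. With a single Atxn7l3-/- library, that fit assumes that it varies as the WT libraries do.

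At an adjusted p of 0.05 or less, 548 genes (3.08% of those tested) were higher and 690 (3.88%) were lower in Atxn7l3-/- mESCs, and these are the genes said to have risen or fallen below. Of them, 491 genes (2.76%) were at least 2-fold higher and 342 (1.92%) at least 2-fold lower while also being expressed at a median of more than 10 normalized reads per kb of transcript. At an unadjusted p under 0.05 in edgeR's test, 2666 of the 17800 genes were higher and 2643 lower. DESeq2, fitted to 31107 genes, called 1695 in each direction. List counts given below at these settings are to be read beside these numbers. The median log2 fold change of all tested genes was 0.04. Of the genes that rose 92.5% were protein-coding, of those that fell 85.4% and of those tested 82.6%. The WT and Atxn7l3-/- libraries did not overlap in any of the 1238 genes that passed, nor in 8848 (49.7%) of all tested genes, so that this separation alone is common here.

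These calls rest on both WT libraries. Without WT replicate 1 or without WT replicate 2 no gene passed, although 1405 and 1332 genes were then higher, and 1527 and 1662 lower, at an unadjusted p under 0.05 in the same edgeR test. Without Atxn7l3-/- replicate 1, 0 genes passed as higher (2001 at an unadjusted p under 0.05) and 3 as lower. With the libraries that have Y-linked reads only, 506 of the 548 genes that rose and 610 of the 690 that fell were still called. A covariate for the presence of Y-linked reads left 389 and 343 of them. In all, that fit called 799 of the 17800 genes higher and 828 lower. Several genes named below overlap another annotated gene, among them Axin2, Sall4, Tbx3, Fzd5, Ccnd1, Icam1, Klf3, Hyal1, Hyal3, Acss2 and Gss. Without a known strand setting their reads cannot be told apart from those of the partner.

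**Figure D1:**
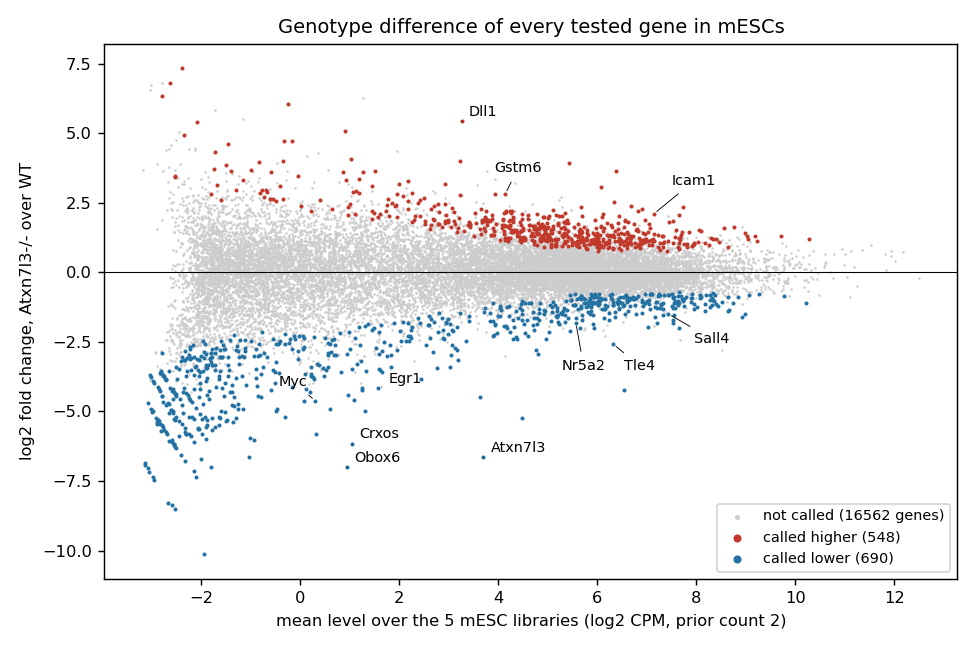
Each point is 1 of the 17800 tested genes, with its mean level over the 5 mESC libraries on the x axis (log2 CPM with a prior count of 2) and its log2 fold change in Atxn7l3-/- over WT on the y axis. Red points are the 548 genes called higher and blue points the 690 called lower; the largest changes are downward and lie mostly among weakly expressed genes.

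The largest falls among expressed genes, besides that of Atxn7l3, were those of genes of the earliest embryo and of a few enzymes and growth factors. Obox6, a homeobox gene of the oocyte and early embryo, stood at 49.5 and 65.4 CPM in the WT libraries and at 1.32, 0.0715 and 0 CPM in the Atxn7l3-/- libraries (log2 fold change −7.00, standard error 1.20, adjusted p = 0.0272 from edgeR's test). Crxos, a neighbouring homeobox gene on chromosome 7, went from 28.3 and 29.0 CPM to 0.782, 0.0953 and 0.343 CPM (log2 fold change −6.16, standard error 0.70, adjusted p = 0.0211). In both genes all the Atxn7l3-/- libraries lay far below the WT libraries. Dio3, which inactivates thyroid hormone, fell from 20.3 and 20.2 CPM to 0.662, 0.262 and 1.00 CPM, a log2 fold change of −4.98. Aqp9, a channel for water and glycerol (−5.25), Fgf1, a fibroblast growth factor (−4.75), and Myc (−4.61) followed, together with Gm10260 (−5.23) and the pseudogenes Gm11800 (−6.01) and Gm12617 (−4.90). Obox6 belongs to a family of similar genes, and how reads shared between copies were counted is not given in the sources used here.

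Among the genes that rose most, Dll1 was the most abundant. It encodes a ligand of the Notch receptors and stood at 1.29 and 1.11 CPM in the WT libraries and at 71.9, 9.77 and 73.9 CPM in Atxn7l3-/- libraries 1 to 3 (log2 fold change 5.43, standard error 0.92, adjusted p = 0.0270 from edgeR's test). Library 2 was thus several-fold below the other Atxn7l3-/- libraries and still above both WT libraries. No read of AC187103.4 or C130046K22Rik was counted in WT mESCs, and against the floor of 3 counts per library the former was at least 5.14-fold higher and the latter at least 3.71-fold higher. AC124433.1, an antisense transcript, had 1 count in WT mESCs and 13, 17 and 37 counts in the Atxn7l3-/- libraries, a ratio of 53.7 with a 95% counting interval of 9.32 to 2150. The lens crystallin gene Cryga (4.73) and the non-coding AC116589.11 (5.08), AC192333.3 (4.73), Gm28499 (4.60) and Gm43759 (4.07) also rose. So did the reads at Mir7028, which lie within Tchp and cannot be told apart from it. AC116589.11, AC192333.3, AC124433.1 and AC187103.4 lie close together on chromosome 13, between 65491789 and 67168778, and need not be independent. C130046K22Rik overlaps Gosr2 on chromosome 11 and lies within 5 Mb of Atxn7l3.

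Transcription factor genes fell far more often than they rose. Of 809 tested genes whose deposited molecular function names transcription factor activity, 74 (9.15%) fell and 6 (0.742%) rose, against 3.88% and 3.08% of all tested genes, and their median log2 fold change was −0.25. The broader deposited term regulation of transcription, DNA-templated, held 1950 tested genes, of which 144 (7.38%) fell and 33 (1.69%) rose (median −0.24). With the covariate for Y-linked reads 58 of the transcription factor genes fell and 15 rose, against 828 and 799 of all 17800 tested genes. In Atxn7l3-/- library 3, which has Y-linked reads, their median difference from the WT mean was −0.33 on the log2 scale. All 6 that rose can be named.

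Tef, a bZIP factor of circadian output, rose from 80.4 and 60.9 CPM to 244, 155 and 239 CPM (log2 fold change 1.59, adjusted p = 0.0270 from edgeR's test). Smad3, which carries TGF-β and activin signals to DNA, rose from 27.9 and 28.8 CPM to 62.7, 63.2 and 55.2 CPM (1.09, adjusted p = 0.0299). For Smad3 the Atxn7l3-/- libraries were close together and all about as far above WT. The others were Bhlhe22 (2.06), Maff, a small MAF protein (1.79), the zinc finger gene Zfp28 (1.45) and Thra, a thyroid hormone receptor, whose log2 fold change was 1.00.

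Among expressed factors, Crxos, Myc and Egr1 had the largest falls. Egr1, an immediate early gene of ERK signalling, stood at 15.2 and 23.7 CPM in WT and at 0.962, 2.00 and 0.264 CPM in Atxn7l3-/- libraries 1 to 3 (log2 fold change −4.17, standard error 0.72, adjusted p = 0.0279 from edgeR's test). Hes1, an effector of Notch and other pathways, fell from 36.3 and 22.8 CPM to 3.88, 6.03 and 2.85 CPM (−2.79, adjusted p = 0.0215). Both genes were lower in every Atxn7l3-/- library than in either WT library. Cdx2, a homeobox factor of trophectoderm (−2.99), the thyroid hormone receptor Thrb (−2.98) and the zinc finger genes Gm14412 (−2.92) and Gm14401 (−2.62) completed those with the largest falls among expressed factors.

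The falls reached into abundant regulators as well. Trim28, the corepressor that silences retroviral elements with zinc finger proteins, stood at 1677 and 2096 CPM in WT and at 912, 836.5 and 869.8 CPM in Atxn7l3-/- mESCs (log2 fold change −1.11, adjusted p = 0.0287 from edgeR's test). Rest, the repressor of neuronal genes, fell by 0.94 on the log2 scale and Ctcf, the chromatin insulator protein, by 0.79. Of the 369 tested zinc finger genes named Zfp, 22 (5.96%) fell and 3 (0.813%) rose, against 3.88% and 3.08% of all tested genes (median −0.52). Medians of this family were −0.78 in Atxn7l3-/- library 1, −0.24 in library 2 and −0.65 in library 3, so library 2 was the closest to WT. Among the 23 tested KLF and SP factors, 4 (17.4%) fell and 0 rose (median −0.69). DESeq2 called 5 of these factors lower and 2 higher, and 10 were lower and 2 higher at an unadjusted p under 0.05 in edgeR's test. Klf3, a repressor of this family, fell from 145.5 and 121 CPM to 26.1, 46.6 and 36.8 CPM, and Klf17 from 1.07 and 0.747 CPM to 0.0902, 0.0953 and 0.211 CPM. Sox4 and Sox7 were the members that fell among 16 SOX factors (12.5%), and Id3 and Hes1 among 12 ID, HES and E-protein factors (16.7%).

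**Figure D2:**
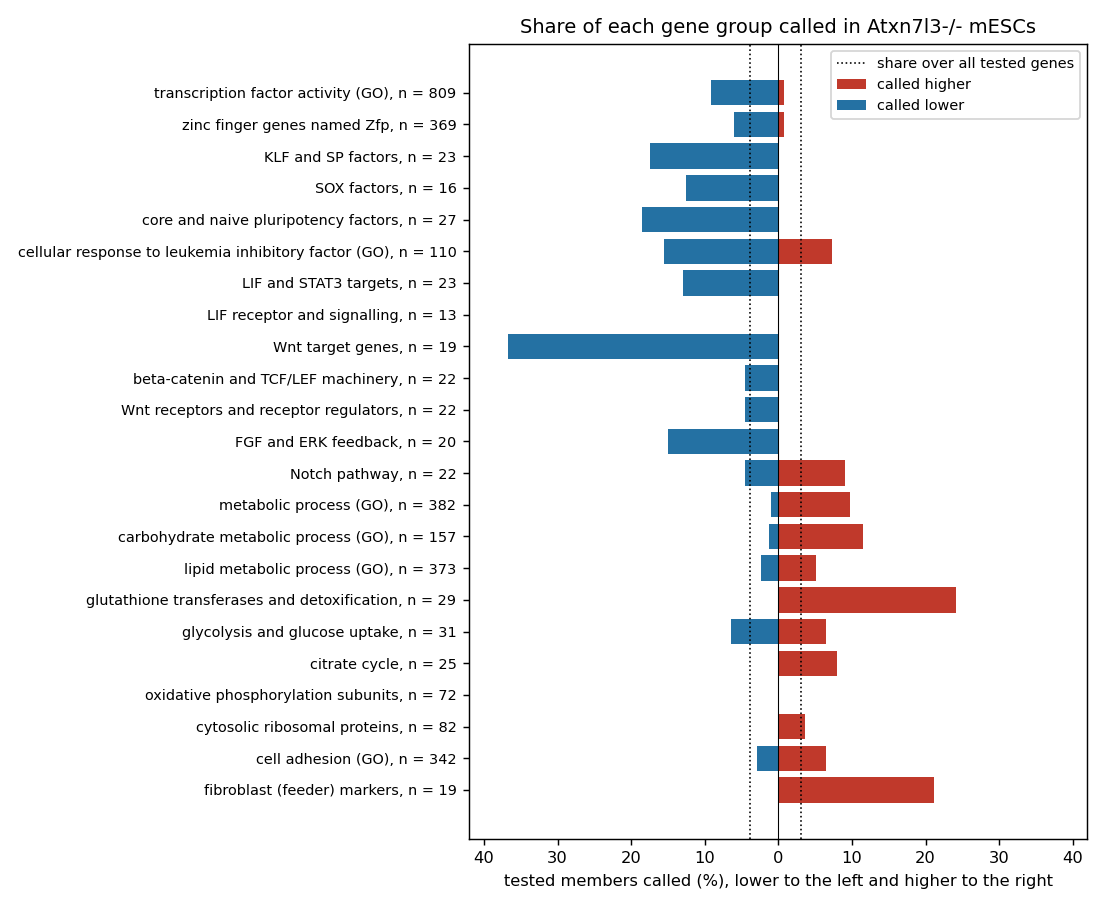
Each bar gives the percentage of a group's tested genes that were called lower (blue, to the left) or higher (red, to the right) in Atxn7l3-/- mESCs, with the number tested beside the name and dotted lines at the shares over all tested genes (3.88% lower, 3.08% higher). Bars of transcription factor and Wnt target groups point to the left, and those of most metabolic groups to the right; GO marks terms deposited with the counts.

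The core factors of the pluripotency network did not pass the test, while several of their partners fell. Of 27 core and naive pluripotency factors, all tested, 5 (18.5%, against 3.88% of all tested genes) fell and 0 rose, and the median log2 fold change was −0.60. At an unadjusted p under 0.05 in edgeR's test 13 were lower and 2 higher, and DESeq2 called 9 lower and 1 higher. Pou5f1 stood at 951 and 1080 CPM in WT and at 1373, 896 and 1235 CPM in Atxn7l3-/- mESCs (log2 fold change 0.20, standard error 0.24, adjusted p = 0.604 from edgeR's test), and the groups overlapped. Sox2 stood at 255 and 301 CPM and at 154, 212 and 171 CPM (−0.64, adjusted p = 0.0954), and Nanog at 785 and 986 CPM and at 479, 788 and 368 CPM (−0.70, adjusted p = 0.191). The Sox2 libraries did not overlap, and Atxn7l3-/- library 2 was at the WT level for Nanog.

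Sall4, a zinc finger factor that binds with OCT4 and NANOG, fell from 304 and 343 CPM to 125, 101 and 118 CPM (log2 fold change −1.50, standard error 0.19, adjusted p = 0.0211 from edgeR's test). Nr5a2, a nuclear receptor of the naive state, fell from 99.1 and 105 CPM to 21.9, 39.4 and 26.4 CPM (−1.80, standard error 0.27, adjusted p = 0.0224). Tbx3, which links LIF and PI3K signals to Nanog, fell from 460.1 and 343 CPM to 191, 175 and 177 CPM (−1.15, adjusted p = 0.0270). For each of these genes all 3 Atxn7l3-/- libraries lay below both WT libraries, and for Nr5a2 library 2 was the highest of them. Klf2 (−1.31) and Tdgf1, the Nodal coreceptor (−1.71), made up the 5 genes that fell. The covariate for Y-linked reads gave 8 members of the group as lower, against 828 of all 17800 tested genes. In Atxn7l3-/- library 3 the median difference of the group from the WT mean was −0.70 on the log2 scale.

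Esrrb and Tfcp2l1, which act downstream of the GSK3 inhibitor and of LIF, had log2 fold changes of −0.18 and 0.11 and did not pass the test. Dppa3, a maternal factor that marks naive cells, had the highest value of the group, with 4.02 and 5.98 CPM in WT and 10.4, 13.3 and 11.95 CPM in Atxn7l3-/- mESCs (log2 fold change 1.25, adjusted p = 0.0734 from edgeR's test). Of the 17 tested genes of formative and primed pluripotency, the state that follows the naive one, 3 fell (17.6%, against 3.88% of all tested genes). Lin28b, an RNA-binding repressor of let-7 microRNAs, had the largest fall of these, from 11.8 and 16.6 CPM to 1.504, 1.86 and 0.396 CPM (−3.50, adjusted p = 0.0287). Foxd3 fell as well (−1.85).

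**Figure D3:**
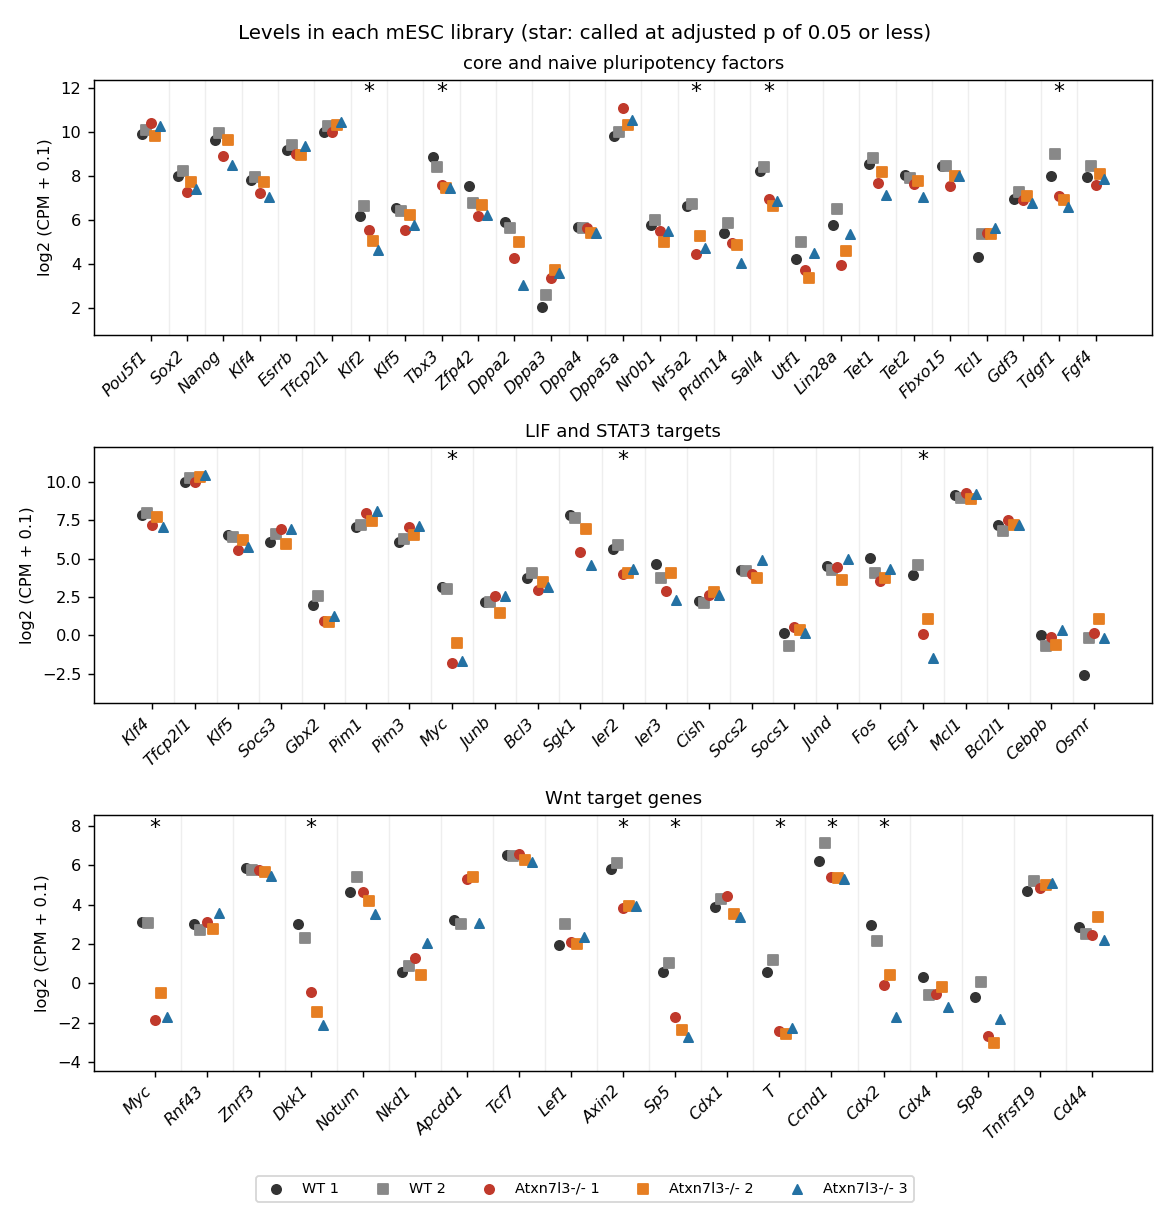
Levels of all tested members of 3 groups in each mESC library, on a log2 scale of CPM plus 0.1, with stars over genes called at an adjusted p of 0.05 or less. Pou5f1, Esrrb and Tfcp2l1 have mixed symbols, whereas the WT symbols of Myc, Egr1, Axin2, Sp5, T and Dkk1 stand above all 3 Atxn7l3-/- symbols.

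LIF acts through a receptor made of LIFR and gp130 (Il6st), JAK kinases and STAT3. None of the 13 tested genes of this pathway passed edgeR's test, in either direction (median log2 fold change 0.10), with 2 higher and 1 lower at an unadjusted p under 0.05 and 1 called higher by DESeq2. Stat3 stood at 130 and 121 CPM in WT and at 147, 132 and 145 CPM in Atxn7l3-/- mESCs, and Il6st at 94.9 and 117 CPM and at 53.4, 86.3 and 36.8 CPM. For Stat3 every Atxn7l3-/- library was above both WT libraries, by a small margin, and for Il6st every one was below. Of 23 direct targets of LIF and STAT3, 3 fell (13%, against 3.88% of all tested genes) and 0 rose, with a median of 0.06 (6 lower and 2 higher at an unadjusted p under 0.05 in edgeR's test, and 5 lower and 0 higher by DESeq2). These 3 were Myc, Egr1 and Ier2, immediate early genes that respond to several growth factor signals. Myc went from 8.66 and 8.15 CPM to 0.180, 0.620 and 0.211 CPM (log2 fold change −4.61, standard error 0.62, adjusted p = 0.0211 from edgeR's test). Ier2 went from 49.8 and 59.6 CPM to 16.2, 16.5 and 19.9 CPM (−1.64, adjusted p = 0.0211). Socs3, the feedback inhibitor that STAT3 induces, had 68.1 and 97.9 CPM in WT and 122, 62.6 and 122 CPM in Atxn7l3-/- mESCs, with Atxn7l3-/- library 2 below both WT libraries (adjusted p = 0.574).

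The deposited term cellular response to leukemia inhibitory factor is wider than this pathway and held 110 tested genes, of which 17 (15.5%) fell and 8 (7.27%) rose, against 3.88% and 3.08% of all tested genes. Tle4, a corepressor of the TLE family that also acts with TCF factors, had the largest fall, from 289 and 194 CPM to 34.1, 56.3 and 30.3 CPM (log2 fold change −2.59, standard error 0.31, adjusted p = 0.0211 from edgeR's test). Vegfc, a growth factor of lymphatic vessels (−2.06), Nr5a2 (−1.80), Spry2, an inhibitor of ERK signalling (−1.52), the retinoic acid receptor Rarg (−1.47), Nefh (−1.40), the histone demethylase Kdm5b (−1.37) and the deacetylase Sirt1 (−1.33) came next. Icam1, a cell adhesion receptor, rose the most, from 46.4 and 76.4 CPM to 223, 185 and 387 CPM (2.11, standard error 0.38, adjusted p = 0.0299). The other genes that rose were Gstt2 (1.71), Dtx1 (1.69), Spock2 (1.52), the cobalamin transporter Abcd4 (1.35), Ptp4a3 (1.04), Ildr1 (1.01) and Wdr35 (0.91). With the covariate for Y-linked reads 15 genes of this term fell and 8 rose, against 828 and 799 of all 17800 tested genes. In Atxn7l3-/- library 3 the median difference of the term from the WT mean was −0.39 on the log2 scale.

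Wnt signals stabilize β-catenin (Ctnnb1), which then joins TCF/LEF factors at target genes, and the GSK3 inhibitor in the medium does the same without a ligand. Most genes of the pathway, and 12 of the 19 tested targets, did not pass the test. Among 13 tested ligands, 22 receptors and receptor regulators, 13 secreted inhibitors and 22 genes of the β-catenin and TCF/LEF machinery, 1 gene of each group fell and 0 rose. The share that fell was thus 4.55% or 7.69% of a group, against 3.88% of all tested genes. At an unadjusted p under 0.05 in edgeR's test, between 2 and 5 genes of each group were lower and between 0 and 2 higher, and DESeq2 called 1 to 4 lower and 0 or 1 higher. The genes that fell were Wnt7a (log2 fold change −3.05), the receptor Fzd5, the inhibitor Dkk1 and Tle4. Fzd5 went from 109 and 132 CPM to 48.0, 44.0 and 54.9 CPM (−1.30, adjusted p = 0.0224 from edgeR's test). Ctnnb1 itself stood at 1146 and 1019 CPM in WT and at 1047, 985 and 937 CPM in Atxn7l3-/- mESCs (−0.13, adjusted p = 0.680), and the groups overlapped. Tcf7l1, the main TCF repressor of mESCs, had a log2 fold change of −0.45 (adjusted p = 0.183).

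Of 21 Wnt target genes, 19 were tested, of which 7 (36.8%, against 3.88% of all tested genes) fell and 0 rose, and the median log2 fold change was −0.56. DESeq2 called 8 lower and 1 higher, and at an unadjusted p under 0.05 edgeR's test had 9 lower and 1 higher. The members of this list were chosen with earlier results of these data known. In the deposited term Wnt signaling pathway 10 of 171 tested genes (5.85%, against 3.88%) fell. In the same term 4 (2.34%, against 3.08% of all tested genes) rose, and its median log2 fold change was −0.13. Axin2, the most widely used readout of the pathway, fell from 55.6 and 69.7 CPM to 13.9, 15.2 and 15.3 CPM (log2 fold change −2.08, standard error 0.22, adjusted p = 0.0211 from edgeR's test). Sp5, a repressor induced by Wnt, fell from 1.40 and 1.97 CPM to 0.211, 0.0953 and 0.0528 CPM (−3.81, adjusted p = 0.0271). Dkk1 fell from 7.84 and 4.75 CPM to 0.632, 0.262 and 0.132 CPM (−4.21, adjusted p = 0.0246). All 3 Atxn7l3-/- libraries were low for each of these genes. Neither Lgr5 nor Fgf20 passed the filter. T, the Brachyury factor of the primitive streak (−4.29), Cdx2 (−2.99), Myc (−4.61) and Ccnd1, cyclin D1 (−1.39), were the other targets that fell. The covariate for Y-linked reads gave 6 of the tested targets as lower, against 828 of all 17800 tested genes. In Atxn7l3-/- library 3 the median difference of the targets from the WT mean was −1.12 on the log2 scale.

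Not all Wnt targets were lower. Znrf3, which removes Wnt receptors from the membrane, had 57.6 and 53.7 CPM in WT and 54.2, 49.3 and 43.1 CPM in Atxn7l3-/- mESCs (log2 fold change −0.19, adjusted p = 0.559 from edgeR's test), and Rnf43, its paralogue, had 7.93 and 6.38 CPM and 8.63, 6.72 and 11.95 CPM (0.35, adjusted p = 0.575). Apcdd1, an inhibitor that is also a target, divided the Atxn7l3-/- libraries. It stood at 9.28 and 8.08 CPM in WT, at 39.4 and 41.9 CPM in Atxn7l3-/- libraries 1 and 2, and at 8.36 CPM in library 3 (1.78, adjusted p = 0.115). The split follows the presence of Y-linked reads.

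Promoter sequences are shown for the Wnt targets Sp5 and Axin2, which fell in every Atxn7l3-/- library, because they differ in the core letters that TCF/LEF factors recognise. They were taken from RefSeq (GRCm38.p6), from 250 bases before to 50 bases after the annotated start, written 5′ to 3′ on the plus strand of both genes. Capitals mark ATCAAAG or its reverse complement CTTTGAT. Sp5 (chr2:70474673-70474972) holds 1 match 104 bases before the start, and Axin2 (chr11:108920099-108920398) holds none in this window.
Sp5: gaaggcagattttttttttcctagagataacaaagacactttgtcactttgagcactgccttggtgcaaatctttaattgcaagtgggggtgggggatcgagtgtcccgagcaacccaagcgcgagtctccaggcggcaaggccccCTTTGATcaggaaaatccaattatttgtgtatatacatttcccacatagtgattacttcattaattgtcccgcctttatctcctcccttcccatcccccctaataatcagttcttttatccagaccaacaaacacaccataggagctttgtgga
Axin2: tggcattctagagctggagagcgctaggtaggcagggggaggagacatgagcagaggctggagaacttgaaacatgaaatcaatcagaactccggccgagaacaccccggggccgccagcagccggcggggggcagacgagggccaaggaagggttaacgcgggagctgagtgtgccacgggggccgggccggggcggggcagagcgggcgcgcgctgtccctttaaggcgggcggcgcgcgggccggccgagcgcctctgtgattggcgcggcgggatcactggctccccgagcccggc
A gene was counted as matching when any of its windows held these letters on either strand. This was so for 4.29% of all 27025 genes with a promoter entry and 3.02% of tested genes with one. Of the 453 genes that fell and had an entry, 1.77% matched. Of the 19 tested Wnt targets 13 had a promoter entry, and Sp5 and Tnfrsf19 held a match. A match is a description of the sequence, and its absence says only that the letters are not in this window.

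Genes of FGF and ERK feedback and of the Notch pathway were mostly not called. Of 20 tested genes of FGF and ERK feedback 3 fell (15%, against 3.88% of all tested genes), namely Egr1, Spry2 and Spred1, and 0 rose (7 lower and 3 higher at an unadjusted p under 0.05 in edgeR's test, and 6 and 2 by DESeq2). Spry2 fell from 87.0 and 68.5 CPM to 20.8, 35.2 and 25.5 CPM (log2 fold change −1.52, adjusted p = 0.0285 from edgeR's test), and Spred1, another inhibitor of ERK signalling, from 37.4 and 35.3 CPM to 8.63, 15.0 and 12.9 CPM (−1.58, adjusted p = 0.0308). Dusp6, the ERK phosphatase, had 12.5 and 7.15 CPM in WT and 0.481, 1.501 and 3.14 CPM in Atxn7l3-/- mESCs and did not pass (−2.52, adjusted p = 0.0705). In the Notch pathway, with 22 tested genes, the ligand Dll1 and the regulator Dtx1 rose (9.09%, against 3.08% of all tested genes) and the effector Hes1 fell (4.55%, against 3.88%), and the median log2 fold change was 0.25. The receptor Notch1 (0.38) and the effector Hey1 (−1.79, adjusted p = 0.0659) did not pass.

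Genes that mark the 2-cell embryo fell as a group. A small fraction of cultured mESCs is known to pass through a state that resembles this stage, with transcripts of the Zscan4, Tcstv and Usp17l families. Of 16 listed genes Duxf3 did not pass the filter on low counts, and the other 15 fell (100%, against 3.88% of all tested genes). Their median log2 fold change was −5.29, from levels between 0.301 and 7.33 CPM in WT libraries. Members of this list, too, were chosen with earlier results of these data known. Zscan4d stood at 6.02 and 5.34 CPM in WT and at 0.0902, 0 and 0.0791 CPM in Atxn7l3-/- mESCs (−6.63, adjusted p = 0.0211 from edgeR's test), and Zscan4b had no count in the Atxn7l3-/- libraries, which makes it at least 4.55-fold lower. Tmem92, on chromosome 11, fell from 7.33 and 5.23 CPM to 0.211, 0.215 and 0.0791 CPM (−5.20, adjusted p = 0.0211). Both WT libraries were far above all 3 Atxn7l3-/- libraries in each case. The covariate for Y-linked reads left 14 of the 15. Copies of these families are close to identical and lie next to each other, 9 Zscan4 genes and pseudogenes in a single 3-Mb window of chromosome 7, so that the genes are not independent of each other and reads may have been divided among them.

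Lists of other lineages had a few members that fell and none that rose in edgeR's test. At an unadjusted p under 0.05 in that test 0 to 3 genes of a list were higher, and DESeq2 called 0 to 2 higher. The shares that fell ranged from 8.33% (neuroectoderm) to 20% (trophectoderm), against 3.88% of all tested genes. In trophectoderm, with 15 tested genes and a median log2 fold change of −1.35, Cdx2, Tfap2a (−2.36) and Plet1 (−2.27) fell. In primitive streak and mesoderm (17 tested, median −1.03) T, Sp5 and Cdx2 fell, each of which is also a Wnt target. In the germ line list (18 tested, median −1.26) Mael (−2.46), Sycp1 (−2.85) and Mov10l1 (−2.14) fell, genes of transposon silencing and of meiotic chromosomes. Medians of that list were −0.44, −0.74 and −2.54 in Atxn7l3-/- libraries 1 to 3, lowest in library 3. Primitive endoderm (15 tested) had Sox7 (0.537 and 0.294 CPM in WT, a count ratio of WT to Atxn7l3-/- of 15.8 with a 95% counting interval of 5.01 to 80.0) and Lamb1 (−1.58), and neuroectoderm (12 tested) had Tubb3 (−1.91).

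Terms of metabolism held more genes that rose than genes that fell. Of 382 tested genes with the deposited term metabolic process, 37 (9.69%) rose and 4 (1.05%) fell, against 3.08% and 3.88% of all tested genes, with a median log2 fold change of 0.35. For carbohydrate metabolic process these numbers were 18 (11.5%) and 2 (1.27%) of 157. The covariate for Y-linked reads gave 39 and 14 genes for metabolic process, against 799 and 828 of all 17800 tested genes. In Atxn7l3-/- library 3 the median difference of this term from the WT mean was 0.26 on the log2 scale. The genes that rose include glutathione transferases, glycosidases, aldehyde dehydrogenases and acyl-CoA enzymes, a division made after the values were seen.

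Glutathione transferases join glutathione to reactive molecules, the second step of detoxification, and those of the mu class lie side by side on chromosome 3. Of 29 tested genes of glutathione transfer and detoxification, 7 (24.1%, against 3.08% of all tested genes) rose and 0 fell (median log2 fold change 0.65). DESeq2 called 9 higher and 1 lower, and 10 were higher and 1 lower at an unadjusted p under 0.05 in edgeR's test. Gstm1 rose from 34.1 and 41.4 CPM to 171, 167 and 123 CPM (2.02, standard error 0.24, adjusted p = 0.0211 from edgeR's test). Gstm6 rose from 5.03 and 5.95 CPM to 42.6, 43.7 and 29.9 CPM (2.82, standard error 0.30, adjusted p = 0.0211), and Gstm7 from 1.05 and 1.06 CPM to 11.9, 8.58 and 8.07 CPM (3.16, adjusted p = 0.0211). In each of these genes library 3 was the lowest of the Atxn7l3-/- libraries and still well above WT. Gstm4 (1.60), Gstm2 (1.26) and Gstt2 (1.71) also rose, and reads of these paralogues may have been divided among copies. Ephx1, an epoxide hydrolase outside the family, rose from 65.0 and 48.8 CPM to 195, 195 and 246 CPM (1.90, adjusted p = 0.0211).

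The antioxidant factor NRF2 (Nfe2l2) drives many of these enzymes in stressed cells, and few of its other targets passed the test. Of 21 tested targets 1 rose (4.76%, against 3.08% of all tested genes), the glutathione synthetase gene Gss, and 0 fell. At an unadjusted p under 0.05 in edgeR's test 3 targets were lower and 2 higher. Over all 17800 tested genes 2643 were lower and 2666 higher at that threshold. DESeq2 called 3 targets lower and 1 higher. Gss overlaps Acss2, which also rose, and their reads cannot be told apart without a known strand setting. Nqo1, a standard target, stood at 214 and 126 CPM in WT and at 168, 244 and 129 CPM in Atxn7l3-/- mESCs (log2 fold change 0.08, adjusted p = 0.887 from edgeR's test). Hmox1 stood at 312 and 164 CPM and at 96.0, 131 and 92.7 CPM (−1.16, adjusted p = 0.0581), and Gclm at 88.4 and 77.8 CPM and at 43.4, 57.3 and 33.1 CPM (−0.90, adjusted p = 0.0720). For both genes the Atxn7l3-/- libraries lay below the WT libraries.

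Promoters of Gstm7 and Gstm1, which both rose in every Atxn7l3-/- library, are shown because NRF2 binds the antioxidant response element, whose core letters are TGACNNNGC (reverse complement GCNNNGTCA, marked in capitals). They come from RefSeq (GRCm38.p6), are written 5′ to 3′ on the minus strand, and each gene has 2 annotated starts. For each gene the window with the most matches was shown, a choice that favours finding a match. Gstm7 (chr3:107931565-107931864) holds 1 match 129 bases before the start, and Gstm1 (chr3:108017769-108018068) holds none in this window.
Gstm7: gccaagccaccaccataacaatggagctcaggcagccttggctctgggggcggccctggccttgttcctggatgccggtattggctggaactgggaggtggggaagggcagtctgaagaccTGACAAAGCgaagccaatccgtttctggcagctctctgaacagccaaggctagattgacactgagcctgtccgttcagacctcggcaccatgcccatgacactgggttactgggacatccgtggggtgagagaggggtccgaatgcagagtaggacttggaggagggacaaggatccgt
Gstm1: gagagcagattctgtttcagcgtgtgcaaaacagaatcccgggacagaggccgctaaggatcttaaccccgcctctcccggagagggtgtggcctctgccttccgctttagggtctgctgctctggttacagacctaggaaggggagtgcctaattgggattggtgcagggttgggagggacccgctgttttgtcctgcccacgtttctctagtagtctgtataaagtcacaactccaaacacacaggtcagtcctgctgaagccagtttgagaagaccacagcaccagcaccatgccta
Counted by gene, over any of its windows and on either strand, the letters were found in 14% of all 27025 genes with a promoter entry. The share was 16.7% of tested genes with an entry, 21.3% of the 408 that rose and 15.7% of the 453 that fell. Of 25 genes of the detoxification list with a promoter entry 4 held a match (Gsta3, Gstm5, Gstm7 and Mgst1), of which only Gstm7 rose.

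Several enzymes that take sugars off glycogen, glycoproteins, glycolipids or glycosaminoglycans rose. They were picked from the genes that passed after their values were seen, so no share of a list is given. Gaa, the acid alpha-glucosidase that digests glycogen, rose from 221.0 and 171 CPM to 643, 634 and 507 CPM (log2 fold change 1.60, standard error 0.23, adjusted p = 0.0211 from edgeR's test). Man2b2, an alpha-mannosidase, rose from 52.4 and 41.8 CPM to 143, 137 and 162 CPM (1.65, adjusted p = 0.0211). The 3 Atxn7l3-/- libraries were close together and far above WT. Man2b1 (1.18), the sialidases Neu1 (1.64) and Neu3 (2.11), Gusb (1.35), Fuca1 (0.87) and the hyaluronidases Hyal1 (1.63) and Hyal3 (3.36) rose as well. Manba, a beta-mannosidase, fell (−1.06). Galns, a sulfatase gene that carries the term metabolic process, also rose (1.24). The annotated spans of Hyal1 and Hyal3 overlap on chromosome 9. Without a known strand setting, reads of the shared stretch cannot be told apart.

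Among the other metabolic genes, Aldh6a1 (1.38), Aldh1l1 (1.26) and Aldh3b1 (2.15) of the aldehyde dehydrogenases rose and Aldh1b1 fell. The WT libraries differed widely for Aldh1b1, with 0.709 and 8.06 CPM in WT and 0.271, 0.143 and 0.290 CPM in Atxn7l3-/- mESCs. Acss2, which makes acetyl-CoA from acetate, rose from 12.7 and 13.4 CPM to 34.1, 44.5 and 44.3 CPM (log2 fold change 1.65, adjusted p = 0.0224 from edgeR's test), and Acsl1 (1.17), Acat1 (1.19) and Acaa1b (2.48) of fatty acid metabolism also rose. Neil2, a DNA glycosylase (2.12), and Alpl, the alkaline phosphatase used to stain mESCs (1.30), carry the same term. Mocs3 (−1.68), Pfkp (−0.89) and Ctbp2 (−0.83) fell.

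Few genes of energy metabolism itself passed edgeR's test. In glycolysis and glucose uptake 2 of 31 tested genes rose (6.45%, against 3.08% of all tested genes) and 2 fell (6.45%, against 3.88%). Those that rose were Eno2, the neuronal enolase (1.70), and Pdk2, which blocks pyruvate dehydrogenase (1.78). Those that fell were the glucose transporter Slc2a1 and Pfkp, a phosphofructokinase. At an unadjusted p under 0.05 in edgeR's test 9 genes of this list were higher and 3 lower, and DESeq2 called 7 and 3. Slc2a1 fell from 513 and 363 CPM to 194, 229 and 135 CPM (log2 fold change −1.24, adjusted p = 0.0401 from edgeR's test). Ldha stood at 332 and 807 CPM in WT and at 590, 461 and 305 CPM in Atxn7l3-/- mESCs, a spread within WT larger than the difference between genotypes. In the citrate cycle 2 of 25 rose (8%, against 3.08%), Pcx (1.25) and Idh2 (0.92), and 0 fell, with a median of 0.40. At an unadjusted p under 0.05 in edgeR's test 9 citrate cycle genes were higher and 0 lower, and DESeq2 called 4 and 0. None of the 72 tested subunits of oxidative phosphorylation passed edgeR's test, with a median of 0.27, and none of 8 genes of the pentose phosphate pathway. At an unadjusted p under 0.05 these were 5 higher and 0 lower, and 0 higher and 1 lower, and DESeq2 called 1 of the subunits higher. G6pdx, the X-linked entry enzyme of that pathway, had 94.5 and 110 CPM in WT, 206 and 237 CPM in Atxn7l3-/- libraries 1 and 2, and 88.1 CPM in library 3.

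**Figure D4:**
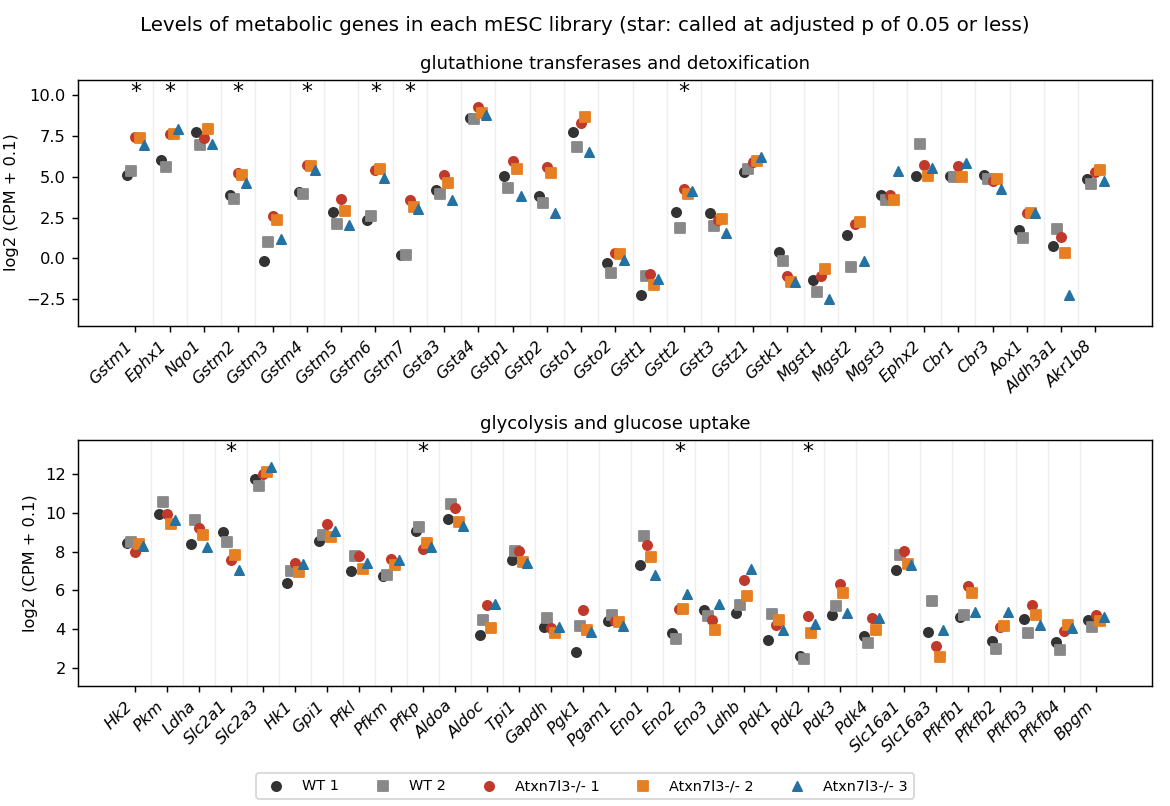
Levels of the tested genes of glutathione transfer and detoxification (top) and of glycolysis and glucose uptake (bottom) in each mESC library, on a log2 scale of CPM plus 0.1, with stars over genes called at an adjusted p of 0.05 or less. Stars of the top panel stand over Gstm1, Ephx1, Gstm2, Gstm4, Gstm6, Gstm7 and Gstt2, where all 3 Atxn7l3-/- symbols lie above both WT symbols; in the bottom panel most symbols are mixed.

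Some adhesion genes and some markers of fibroblasts, the feeder cell type, rose. Of 342 tested genes with the deposited term cell adhesion, 22 (6.43%) rose and 10 (2.92%) fell, against 3.08% and 3.88% of all tested genes, with a median log2 fold change of 0.06. Nid1, a basement membrane protein, rose from 429.5 and 550 CPM to 1266, 1051 and 1316 CPM (log2 fold change 1.31, adjusted p = 0.0274 from edgeR's test). Epcam, an epithelial adhesion protein, rose from 110.4 and 124 CPM to 428, 291 and 239 CPM (1.45, adjusted p = 0.0317), and E-cadherin (Cdh1) had a log2 fold change of 0.25 and did not pass. Of 21 fibroblast markers 19 were tested and 4 (21.1%, against 3.08% of all tested genes) rose, namely Col1a1, Col5a1, Postn and S100a4. None fell (against 3.88% of all tested genes). The covariate for Y-linked reads left 1 higher, and DESeq2 called 9 higher and 0 lower. At an unadjusted p under 0.05 in edgeR's test 13 were higher and 0 lower, against 2666 and 2643 of all 17800 tested genes. Col1a1 stood at 10.9 and 52.3 CPM in WT and at 165, 211 and 174 CPM in Atxn7l3-/- mESCs. In every Atxn7l3-/- library 15 of the markers were above both WT libraries. The genotypes did not overlap in 78.9% of the tested markers, against 49.7% of all tested genes in either direction.

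Summed over the 21 fibroblast markers, the level was 87.0 and 276 CPM in WT and 694, 979 and 693 CPM in Atxn7l3-/- mESCs. The WT libraries thus differed 3.17-fold from each other and the genotypes 4.35-fold on the mean. In WT fibroblasts (MEFs) of the same study the sum ranged from 21630 to 64320 CPM with a median of 36340, a level set across tables that were normalized separately. The highest Atxn7l3-/- mESC library reached 2.69% of that median. Dcn and Twist2 were at or under 0.405 CPM in all mESC libraries. They are also weak in WT MEFs, with medians of 35.8 and 7.43 CPM. The highest Atxn7l3-/- level of Dcn was 1.13% of its WT MEF median. What part these transcripts have in the adhesion genes was not tested.

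Library by library, the genes that passed were moved farthest most often in Atxn7l3-/- library 3. Of the 548 genes that rose, library 3 was farthest from the WT mean in 274 (50%), library 1 in 199 (36.3%) and library 2 in 75 (13.7%). Of the 690 that fell, the numbers were 303 (43.9%), 257 (37.2%) and 130 (18.8%). Library 2 was the nearest to WT in 328 genes that rose (59.9%) and 325 that fell (47.1%). Median distances from the WT mean were nevertheless similar, at 1.54, 1.27 and 1.55 on the log2 scale in libraries 1 to 3 for genes that rose and −2.26, −2.05 and −2.33 for genes that fell. The selection of these genes required the libraries to move together, so their agreement is not a result.

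Sex-linked genes split the Atxn7l3-/- libraries. Over 680 tested X-linked genes, the median difference from the WT mean was 0.73 and 0.72 on the log2 scale in Atxn7l3-/- libraries 1 and 2 and −0.27 in library 3. Xist, the RNA that coats an inactive X, stood at 10.96 and 25.3 CPM in WT, at 58.3 and 51.0 CPM in libraries 1 and 2, and at 2.80 CPM in library 3. Among the X-linked genes 45 (6.62%) rose and 10 (1.47%) fell, against 3.08% and 3.88% of all tested genes. Kdm5d was the Y-linked gene that fell, and its pattern differed from that of other Y-linked genes. It stood at 6.66 and 25.1 CPM in WT and at 0.686 CPM in library 3, where Ddx3y reached 225 CPM, above both WT libraries (90.6 and 193 CPM). In Atxn7l3-/- libraries 1 and 2, Ddx3y was at 3.46 and 0.882 CPM.

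Chromosome 11 carries Atxn7l3. Of its 1442 tested genes 77 fell (5.34%, against 3.88% of all tested genes) and 30 rose (2.08%, against 3.08%). Its medians were 0.06, −0.14 and −0.32 in Atxn7l3-/- libraries 1 to 3, and WT library 2 differed from WT library 1 by −0.09. Within 10 Mb of Atxn7l3, 34 of 340 tested genes (10%) had passed the test, 25 lower and 9 higher, against 6.96% of all tested genes. Axin2, Pdk2, Col1a1, Tmem92, Thra and C130046K22Rik are among them. The lines have a mixed background, and sequence variants linked to the null allele cannot be told apart from the allele in these data.

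**Figure D5:**
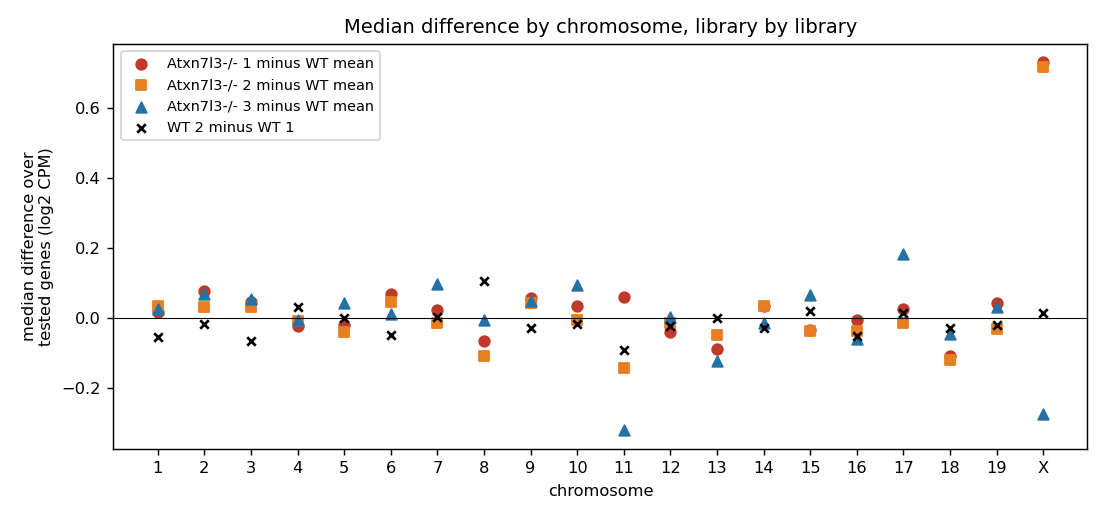
For each chromosome, the median over its tested genes of the difference in log2 CPM between an Atxn7l3-/- library and the WT mean, with the difference between the WT libraries as crosses. On X, libraries 1 and 2 stand at 0.73 and 0.72 and library 3 at −0.27, and on chromosome 11 library 3 stands at −0.32, while other medians lie near 0.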

How the data were processed

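Poly(A)+ RNA was sequenced from 2 WT and 3 Atxn7l3-/- mESC lines. The authors prepared TruSeq Stranded mRNA libraries and mapped reads to mm10, and the submitters' processing notes list bcl2fastq 2.17.1.14, cutadapt 1.10, STAR 2.5.3a, HTSeq 0.6.1p1 and DESeq2 1.16.1. The annotation, the strand setting and the treatment of shared reads are not given in the sources used here. The deposited raw read counts per gene were tested as they stand. The deposited normalized signal, counts divided by size factors and by transcript length in kb by the authors, was used only to call a gene expressed (median above 10). Columns with the authors' own log2 fold changes and p-values were not used, nor was 1 unnamed column.

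Genes were filtered with filterByExpr, normalized by TMM and tested with edgeR 4.0.16 in R 4.3.3 (quasi-likelihood test of Atxn7l3-/- against WT, 5 libraries, no covariate), with Benjamini-Hochberg adjustment over the 17800 genes tested. Called means an adjusted p of 0.05 or less. A log2 fold change is the fitted coefficient, and CPM are TMM-normalized. Lines came from separate embryos, and p-values measure the spread between these lines. As alternatives, normalization was by RLE or upper quartiles, the filter was dropped or set to at least 10 counts per library, and the fit was repeated with DESeq2 1.42.0, the replicate number as a block, genes on X and Y removed, a covariate for Y-linked reads, an adjusted p of 0.1, each library left out and, chosen after seeing the data, only the libraries with Y-linked reads. WT MEF counts from the second deposited table gave the reference for fibroblast markers.

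Gene groups were lists of symbols and terms deposited with the counts. Their members and the comparison itself were chosen with earlier results of these data known. The genes named are Atxn7l3, the 10 largest changes in each direction among called genes that were expressed, at least 2-fold changed and without overlap between genotypes, up to 8 transcription factor genes and metabolic genes in each direction by the same rule (4 for lower metabolic genes), up to 3 called members in each direction of each list together with its first 3 tested genes, and up to 8 called members of the LIF term in each direction. Further genes, among them several called regulators, enzymes and uncalled members, were named after their values were seen. Promoters were matched by symbol to RefSeq (GRCm38.p6), for 11969 tested genes. Figures were drawn with matplotlib 3.10.9. The values of a few genes are not reported here.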

Additional observations from a re-analysis of the deposited data

How the results depend on the processing

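With 2 WT lines the calls depend on which libraries enter. Over the fits that left out 1 library each, the number of genes called higher ranged from 0 to 1061 and of genes called lower from 0 to 1181, and with a 2-fold change and expression from 0 to 794 and from 0 to 728; the lowest came without either WT library or without Atxn7l3-/- replicate 1, the highest without Atxn7l3-/- replicate 2. Higher and lower genes numbered 1390 and 1605 without a filter on low counts, 1695 and 1695 with DESeq2, 1566 and 1626 at an adjusted p of 0.1 or less, and 1806 and 2084 with only the libraries that have Y-linked reads. With a 2-fold change and expression these settings gave 1045 and 739, 1217 and 848, 1080 and 703, and 1370 and 1430 genes. A minimum of 10 counts in every library left 449 genes called lower, from fewer genes tested. A covariate for Y-linked reads gave 758 and 592 genes at 2-fold, and under it 29 of the 120 named genes that were called lost the call; the cause was not tested. RLE and upper-quartile normalization, which gave 507 and 493 genes higher and 723 and 734 lower, cost 2 and 4 of the named genes their call. The Xist log2 fold change reversed, from 1.04 to −2.70 with the covariate for Y-linked reads and −2.69 with only the libraries that have them.

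The replicate block gave 712 genes higher and 723 lower (658 and 457 with a 2-fold change and expression), of which 408 and 500 were among those called without it, and 15 named genes lost the call. Lines with the same number come from different blastocysts, so the pairing is by number alone, and only 2 numbers are shared.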

Other observations

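Genes of the cell cycle and of the p53 list were called in both directions. Of 36 tested cell cycle genes 2 rose and 2 fell (5.56% each, against 3.08% and 3.88% of all tested genes). Rbl2, a pocket protein of the retinoblastoma family that holds back the cell cycle, stood at 13.7 and 14.9 CPM in WT and at 36.7, 34.9 and 40.7 CPM in Atxn7l3-/- libraries 1 to 3 (log2 fold change 1.38, adjusted p = 0.0263, edgeR's test), and Rb1 rose by a log2 fold change of 1.04. Plk1, a mitotic kinase (−1.12), and Ccnd1 (−1.39) fell. Trp53 itself, which lies on chromosome 11, fell from 499 and 561 CPM to 206, 277 and 185 CPM (−1.25, adjusted p = 0.0287 from edgeR's test). Its target Cdkn1a stood at 311 and 297 CPM in WT and at 532, 458 and 596 CPM in Atxn7l3-/- mESCs. It did not pass (0.80, adjusted p = 0.0550 from edgeR's test). All Atxn7l3-/- libraries were above both WT libraries, but 49.7% of all tested genes had no overlap between genotypes. Of 18 tested genes on the p53 list, 1 other gene passed, the X-linked Eda2r (1.12), so that 5.56% rose and 5.56% fell.

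Among 82 tested cytosolic ribosomal protein genes 3 rose (3.66%, against 3.08% of all tested genes) and 0 fell, with a median log2 fold change of 0.56. DESeq2 called 15 higher and 1 lower, and 32 were higher and 3 lower at an unadjusted p under 0.05 in edgeR's test. The covariate for Y-linked reads gave 4 higher and 0 lower, against 799 and 828 of all 17800 tested genes. The median difference from the WT mean was 0.86 in Atxn7l3-/- library 1, 0.09 in library 2 and 0.59 in library 3. None of the 18 tested genes of the amino acid response under ATF4 was called by edgeR's test (4 higher and 2 lower at an unadjusted p under 0.05, and 1 of each by DESeq2). Of 18 genes of serine, glycine and one-carbon metabolism 1 fell (5.56%, against 3.88% of all tested genes), Mat2a (−1.07), which makes S-adenosylmethionine. In sterol and fatty acid synthesis (24 tested) Acss2 rose (1.65) and Elovl6 fell (−1.14), which is 4.17% in each direction. Of the 12 genes of the MYC, MAX and MXD family, Myc and Mycl (−1.43) fell (16.7%).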
